A study of Homo sapiens with 2 samples.

Results

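The mitochondrial ribosomal protein genes were examined in HSC-3 cells, an established line of human tongue squamous cell carcinoma, with and without the ferroptosis inducer FIN56. The genes were taken by symbol, as every entry that begins with MRPL or MRPS and goes on with a number and, in some, a letter from A to C. The rule found 78 of the 60616 genes in the deposited tables, of which 49 were named MRPL, for the large subunit, and 29 MRPS, for the small subunit. The rule uses no measured value, although it was set with earlier results of these data known. Cells of both groups were grown in DMEM with serum and antibiotics. One group received 0.1% DMSO, the solvent, and the other 1 µM FIN56 for 48 h, with no time given for the DMSO culture. There was 1 library per condition, made from mRNA of a single cell line, so no difference below has a replicate check and no test between conditions could be made.

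Mitochondria keep a ribosome of their own, which descends from that of bacteria and translates the few mRNAs encoded by mitochondrial DNA, all of them for subunits of the respiratory chain and ATP synthase. Its rRNAs come from the mitochondrial genome, whereas its proteins are encoded in the nucleus, made by cytosolic ribosomes and imported. The large subunit holds the peptidyl transferase center and the exit tunnel, which faces the inner membrane, and the small subunit binds and decodes the mRNA. Some of the proteins have bacterial counterparts and others are found only in mitochondria. FIN56 promotes the loss of GPX4, the enzyme that detoxifies lipid peroxides, and leads to ferroptosis, an iron-dependent death driven by lipid peroxidation.

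The expected counts, which are RSEM estimates of reads per gene and need not be whole, came to a total of 70184517 in DMSO and 73062209 in FIN56. The 78 genes had between 723.7 and 13533 of them. Levels are given as TPM, a share of all transcripts that is corrected for length and can be compared between genes. All 9 markers of squamous epithelium that were listed, among them KRT5, KRT14 and TP63, were expressed. Of 9 markers of leukocytes, endothelium, fibroblasts and muscle, PTPRC, CD3E and DES were at 0 in both libraries. COL3A1 and PECAM1 had at most 1 count, and VWF 40.6 in DMSO and 32 in FIN56. CD68 had 5181 expected counts in DMSO and 2396 in FIN56, COL1A1 919 and 562, and ACTA2 531 and 558. The part of these genes in the results was not tested.

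The start regions of these genes lie on 21 chromosomes and were compared for short sequence motifs, since nuclear genes for mitochondrial proteins are known to share binding motifs for NRF1 and for ETS factors such as GABPA. RefSeq gave a window of 250 bases before to 50 bases after the start on GRCh38.p14 for 69 of the 78 genes. The 6 stretches below run 5′ to 3′ on the strand of the gene, from 120 bases before the start to 30 after it. They belong to the most abundant genes, MRPL51 at chr12:6493233-6493382 (minus strand), MRPL52 at chr14:22829767-22829916 (plus strand) and MRPS24 at chr7:43869488-43869637 (minus strand), to a gene with a higher level in the FIN56 library, MRPS23 at chr17:57850015-57850164 (minus strand), and to a pair with lower levels, MRPL33 at chr2:27771599-27771748 (plus strand) and MRPS21 at chr1:150293741-150293890 (plus strand). They were picked after their values were seen. Capitals mark CCGGAAG, the ETS letters, and AAGATGGC, the YY1 letters, on either strand.
MRPL51: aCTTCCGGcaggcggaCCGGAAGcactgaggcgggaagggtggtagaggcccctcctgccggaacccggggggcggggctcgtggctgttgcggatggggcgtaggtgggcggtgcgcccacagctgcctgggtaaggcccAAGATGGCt
MRPL52: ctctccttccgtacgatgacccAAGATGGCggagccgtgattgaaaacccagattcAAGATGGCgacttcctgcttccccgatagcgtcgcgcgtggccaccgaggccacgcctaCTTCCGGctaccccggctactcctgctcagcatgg
MRPS24: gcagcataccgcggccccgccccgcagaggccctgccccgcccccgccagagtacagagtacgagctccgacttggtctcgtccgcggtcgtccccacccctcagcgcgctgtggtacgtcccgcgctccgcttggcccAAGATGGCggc
MRPS23: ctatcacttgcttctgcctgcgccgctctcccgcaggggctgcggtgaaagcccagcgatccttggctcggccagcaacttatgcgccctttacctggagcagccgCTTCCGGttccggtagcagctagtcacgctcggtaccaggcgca
MRPL33: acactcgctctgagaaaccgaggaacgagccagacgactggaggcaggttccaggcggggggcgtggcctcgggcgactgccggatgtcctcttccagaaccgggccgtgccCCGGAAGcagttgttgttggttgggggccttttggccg
MRPS21: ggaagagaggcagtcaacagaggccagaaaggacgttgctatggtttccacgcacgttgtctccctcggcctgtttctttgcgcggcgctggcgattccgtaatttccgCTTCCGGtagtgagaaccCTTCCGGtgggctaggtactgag

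Both sets of letters were more common in these windows than in those of other genes. CCGGAAG was found on either strand in 29 of the 69 windows (42.0%), against 20.6% of the 9559 windows of genes tested here and 10.7% of all 27305 windows. AAGATGGC was found in 20 windows (29.0%), against 5.81% of the windows of tested genes and 3.03% of all. The ETS and YY1 letters can overlap by AAG, and 0 of the matches did so here. Their place differed. Of 21 matches to the YY1 letters, 15 lay after the start, between position 7 and position 36, and all of these read on the strand of the gene, as in MRPL51 and MRPS24. Such a match within 50 bases after the start was held by 21.7% of the windows, against 3.83% of those of tested genes. Of 39 matches to the ETS letters, 33 lay before the start, with a median position of -22. At least 1 of these motifs was held by 41 windows (59.4%), against 24.98% of those of tested genes, and 8 held both.

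Other motifs were at or below the level in tested genes. The NRF1 motif, searched as 10 letters with GCGC at both ends, was in 8 windows (11.6%), against 12.2% of those of tested genes. The E-box CACGTG was in 6 (8.70%, against 10.2%) and TATAAA in 2 (2.90%, against 5.41%). The median log2 TPM ratio was 0.08 with the ETS letters and 0.12 without them, and 0.16 with the YY1 letters and 0.11 without them. It was 0.13 with the NRF1 motif and 0.12 without it, and 0.06 with the E-box and 0.13 without it. The 2 genes with TATAAA had a median of -0.13, against 0.12 without these letters. A match describes the sequence and does not show that a factor binds there.

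The genes spanned a wide range of levels, and the order of the genes was nearly the same in both libraries. In DMSO the levels ran from 14.3 TPM for MRPL50 to 449 TPM for MRPL51, with a median of 78.0 TPM. In FIN56 they ran from 12.3 TPM for MRPL50 to 475 TPM for MRPL51, with a median of 88.1 TPM. The same genes stood at both ends. Across the 78 genes, log2 TPM in DMSO and in FIN56 had a Spearman correlation of 0.975 (78 genes of the same pair of libraries, a description only), and 59 genes moved by 5 ranks or fewer. Together the genes made up 0.770% of all TPM in DMSO and 0.819% in FIN56.

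**Figure D1:**
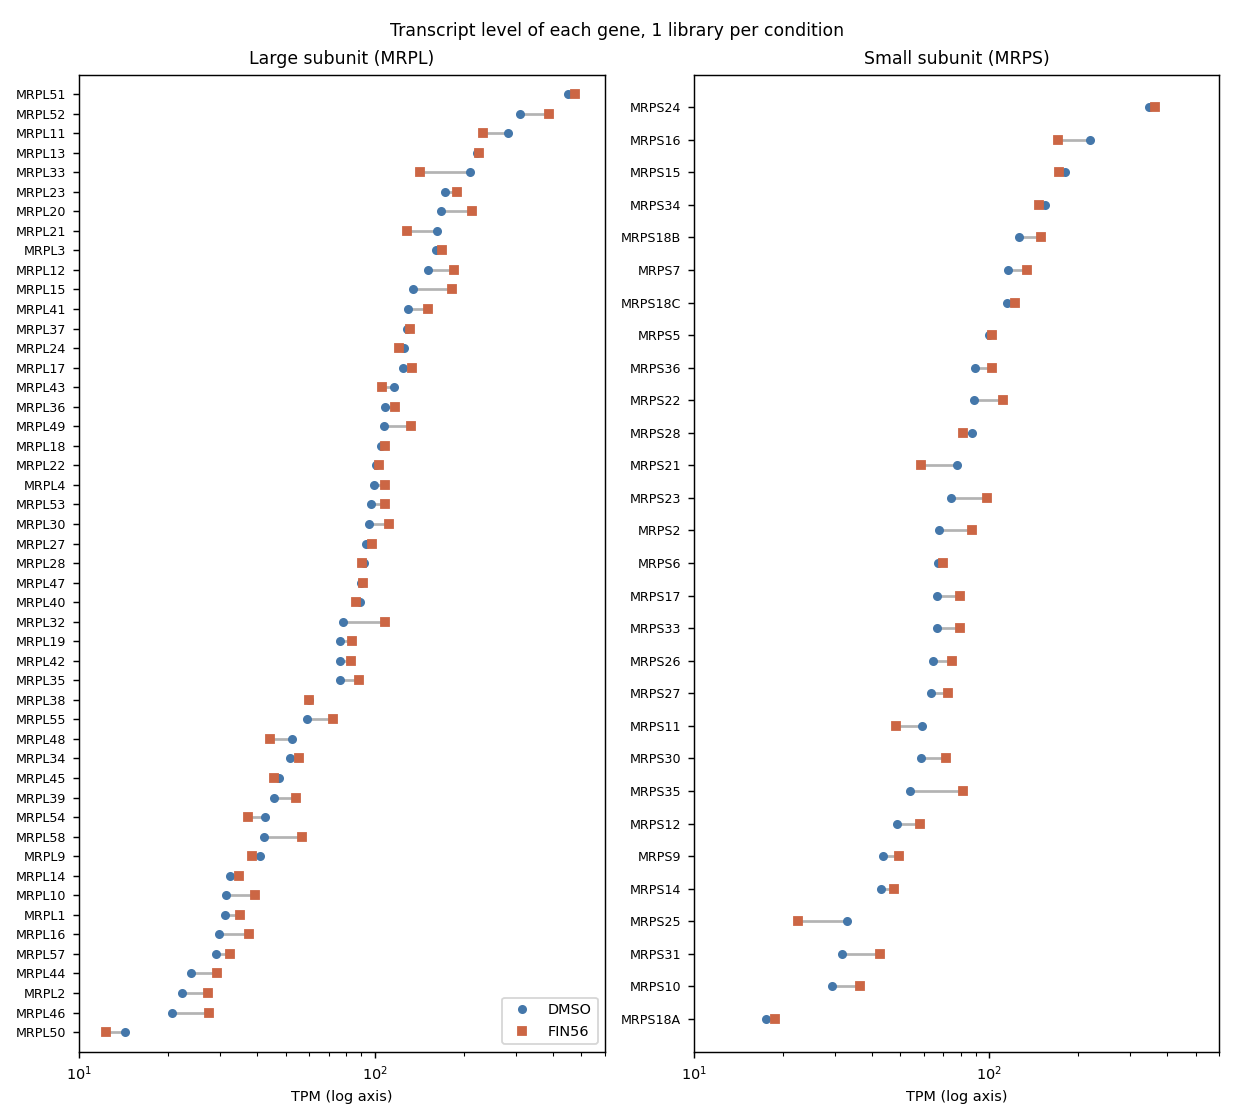
Transcript level in TPM (log axis) of each MRPL gene (left) and MRPS gene (right) with DMSO (circles) and FIN56 (squares), 1 library each, ordered by the DMSO level. Levels run from 14.3 TPM for MRPL50 to 449 TPM for MRPL51 in DMSO, and most squares lie close to their circle.

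Most of the genes had a somewhat higher level in the FIN56 library. TPM was higher in FIN56 for 59 genes (75.6%) and lower for 19. The background was the set of 12659 genes that had 100 or more expected counts in each library. Of these, 57.3% were higher and 42.5% lower. The median log2 TPM ratio, FIN56 over DMSO, was 0.12 over the 78 genes, with a counting range of 0.06 to 0.21, and 0.06 over the background. For this range, the width of each gene's counting interval, described below, was set around its TPM ratio. The range runs from the median of the lower bounds to the median of the upper bounds. It reflects counting error of single genes and leaves out the gap between TPM and counts. In the 8242 background genes whose counts lie in the same range as those of the 78 genes, 60.4% were higher, 39.5% were lower and the median was 0.07. Of the 78 genes, 51 (65.4%) lay above the median of the background, which by construction holds for 50% of background genes, and for 52.1% of those in the same range of counts.

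The differences were small for almost every gene. A TPM ratio of 1.5 or more was reached by 1 gene, MRPS35, against 4.49% of the background, and a TPM ratio of 0.667 or less by none, against 6.08%. Which gene passed depended on the measure. By expected counts scaled by library totals, MRPS35 had a ratio of 1.46, short of 1.5, and MRPL33 one of 0.650, below 0.667. The background shares here are by TPM. In the same range of counts the TPM shares were 3.07% and 3.51%. At a threshold of 1.2, 21 genes (26.9%) were higher, against 24.4% of the background, and 7 genes (8.97%) were lower by the same factor, against 19.2%. For the same range of counts the shares were 24% and 14.7%. The other 50 genes lay between these limits.

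To set the differences against counting error, the ratio of expected counts, scaled by the library totals, was given an exact 95% Clopper-Pearson interval. It covers the error of counting reads in these libraries and not the spread between cultures. The interval lay above 1 for 42 genes (53.8%), against 38.4% of the background, below 1 for 19 (24.4%), against 36.6%, and held 1 for 17. In the same range of counts the shares were 42.1% above and 36.3% below. By counts alone 54 genes were higher and 24 lower. The median log2 count ratio was 0.073 over the 78 genes, against 0.009 over the background, whose share of genes higher by counts was not computed. TPM and counts pointed in opposite directions for 5 genes, MRPL13, MRPL19, MRPL27, MRPL38 and MRPS18C, which were named after their values were seen. The log2 TPM ratio exceeded the log2 count ratio by a median of 0.03 over the 78 genes and of 0.04 over the background, so part of these gaps is shared by all genes. MRPL19, a large subunit protein with a bacterial counterpart, had 76.6 TPM in DMSO and 83.5 TPM in FIN56. Its count ratio was 0.956, with an interval of 0.926 to 0.987, below 1.

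**Figure D2:**
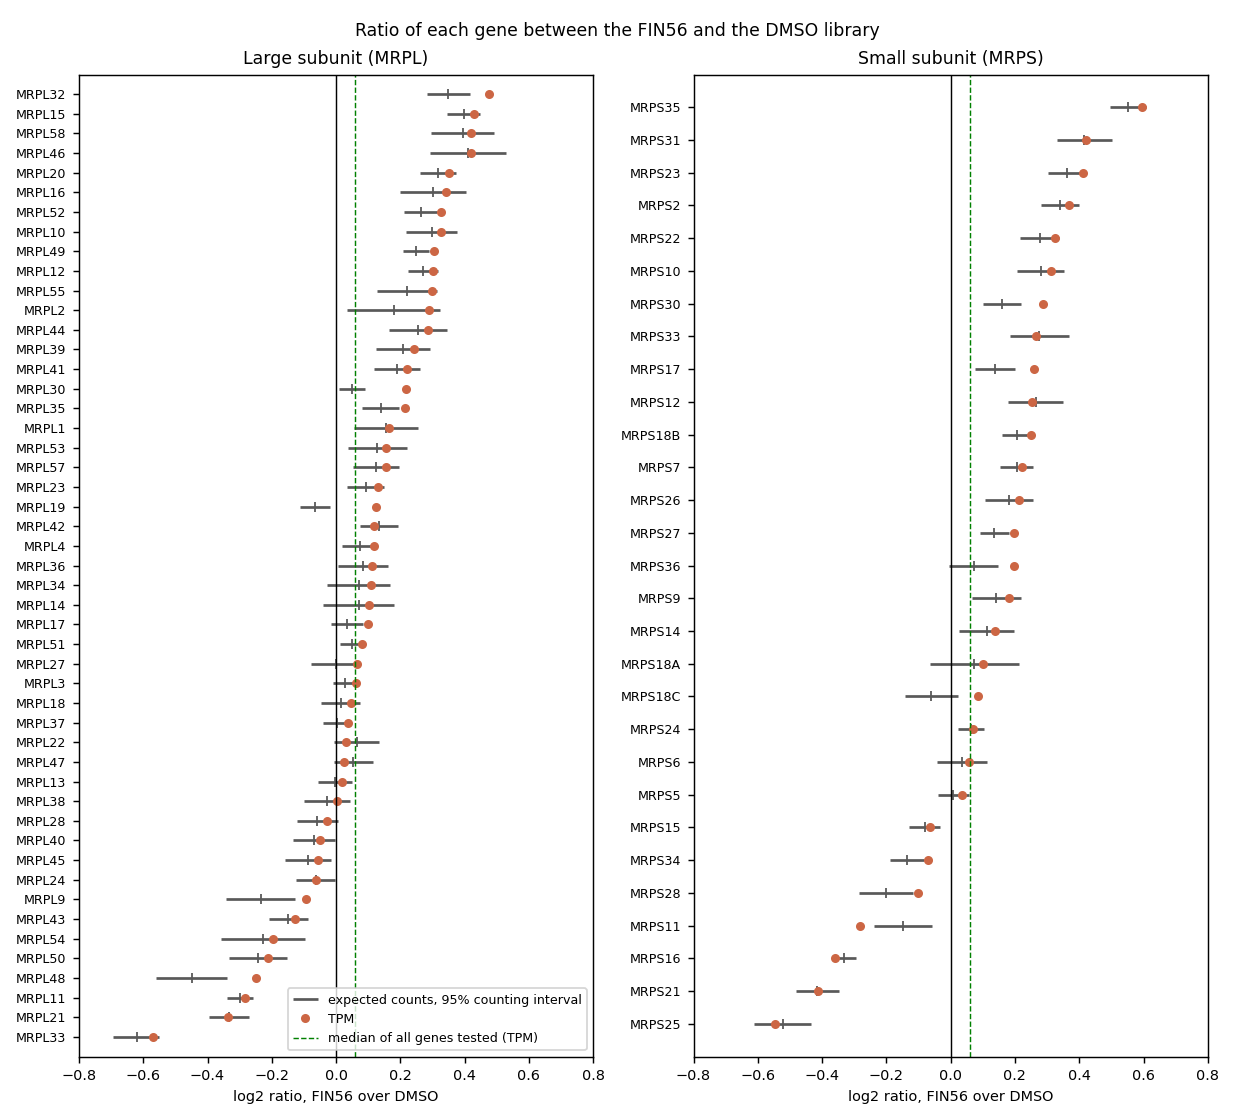
The log2 ratio of FIN56 over DMSO for each MRPL gene (left) and MRPS gene (right), by TPM (points) and by expected counts (ticks, with lines for the 95% counting interval), 1 library per condition. The dashed line is the median log2 TPM ratio of all genes tested, 0.06, and 51 of the 78 points lie to the right of it, from a whole range of -0.57 for MRPL33 to 0.60 for MRPS35.

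The large and the small subunit were compared next, because both are needed in equal number in a working ribosome. The median log2 TPM ratio was 0.11 for the 49 MRPL genes (counting range 0.05 to 0.18) and 0.20 for the 29 MRPS genes (0.12 to 0.25). The difference, large minus small, was -0.08. Taking the bounds of these ranges against each other gave -0.21 to 0.06. This reflects the counting error of single genes and not the spread between genes, so it cannot test whether the subunits differ. Higher levels in FIN56 were found for 37 of 49 MRPL genes (75.5%) and 22 of 29 MRPS genes (75.9%), nearly the same share.

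The summed levels kept their balance. MRPL genes summed to 5113 TPM in DMSO and 5432 TPM in FIN56, a ratio of 1.06. MRPS genes summed to 2591 TPM in DMSO and 2758 TPM in FIN56, also a ratio of 1.06. The large over small ratio of these sums was therefore 1.97 in both libraries and differed by -0.194%. This holds for the sums, whereas the large over small ratio of the median TPM was 1.37 in DMSO and 1.22 in FIN56. By summed expected counts the FIN56 over DMSO ratio was 1.04 for MRPL genes (interval 1.03 to 1.04) and 1.05 for MRPS genes (1.04 to 1.06). The symbols do not fully follow the structure of the ribosome. MRPS30 and MRPS18A are known to sit in the large subunit, and MRPS36 belongs to the oxoglutarate dehydrogenase complex of the citric acid cycle. With these placed by structure, the large over small ratio of the sums was 2.14 in DMSO and 2.15 in FIN56. That of the median TPM was 1.33 in DMSO and 1.14 in FIN56.

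The widest difference among the small subunit genes was that of MRPS35, which codes for a mitochondria-specific protein of the head. It is encoded at chr12:27710822-27756295 on the plus strand, in 8 exons of the main transcript. MRPS35 had 53.8 TPM in DMSO and 81.4 TPM in FIN56, a ratio of 1.51, from 4316 and 6582 expected counts. Its count ratio of 1.46 had an interval of 1.41 to 1.52, so the counts alone do not place it on either side of 1.5. MRPS31, another mitochondria-specific protein of the head, had 31.9 TPM in DMSO and 42.7 TPM in FIN56, a ratio of 1.34. Pseudogenes close to it, MRPS31P5 and MRPS31P4, had 437 and 213 expected counts in DMSO, whereas the counts of MRPS31 itself were whole in both libraries. MRPS23, a mitochondria-specific protein, had 74.1 TPM in DMSO and 98.6 TPM in FIN56, a ratio of 1.33. MRPS2, which has a bacterial counterpart, had 67.9 TPM in DMSO and 87.7 TPM in FIN56, a ratio of 1.29. The counting intervals of these genes all lay above 1. An exon of MRPS2 overlaps other genes on the opposite strand, whereas the other 3 genes share no exon.

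At the other end stood 4 MRPS genes with lower levels in FIN56. MRPS25, a mitochondria-specific protein, had 33.0 TPM in DMSO and 22.6 TPM in FIN56, a ratio of 0.685, with a count interval of 0.654 to 0.740. Its exons overlap NR2C2 on the opposite strand and ENSG00000289750 on the same strand, and its counts are not whole. MRPS21, with a bacterial counterpart, had 78.1 TPM in DMSO and 58.6 TPM in FIN56, a ratio of 0.751, from 3979 and 3108 counts, all of them whole. Its interval ran from 0.716 to 0.787. MRPS16, whose loss is known to cause a deficiency of the respiratory chain, had 220 TPM in DMSO and 171 TPM in FIN56, a ratio of 0.779. MRPS11, with a bacterial counterpart, had 59.0 TPM in DMSO and 48.6 TPM in FIN56, a ratio of 0.823, whereas its count ratio was 0.902. Exons of MRPS16 and MRPS11 overlap genes on the opposite strand. MRPS16 was also among the most abundant of the MRPS genes. The others were MRPS24, with 348 TPM in DMSO and 364 TPM in FIN56, and MRPS15, with 180 and 172 TPM. MRPS24 shares exons with the URGCP-MRPS24 readthrough gene, so its level is less certain. The 14 remaining MRPS genes outside these and the S-named exceptions had TPM ratios from 0.932 to 1.25.

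Among MRPL genes, the widest difference was a lower level of MRPL33, which has a bacterial counterpart and is encoded at chr2:27771717-27988087 on the plus strand. MRPL33 had 211 TPM in DMSO and 142 TPM in FIN56, a ratio of 0.674, from 3924 and 2656 expected counts. Its count interval was 0.619 to 0.683. An exon overlaps BABAM2 on the same strand, and the counts are not whole, so part of the reads had to be divided between genes. MRPL21, with a bacterial counterpart, had 162 TPM in DMSO and 128 TPM in FIN56, a ratio of 0.793, from whole counts and no shared exon. MRPL11, which forms the base of the stalk that binds translation factors, had 282 TPM in DMSO and 232 TPM in FIN56, a ratio of 0.821. MRPL48, a protein of the central protuberance, had 52.7 TPM in DMSO and 44.3 TPM in FIN56, a ratio of 0.841, with a lower count ratio of 0.733. The intervals of all 4 genes lay below 1, and MRPL11 overlaps PELI3 on the opposite strand. The 39 MRPL genes that are not named for their ratio or abundance had TPM ratios from 0.864 to 1.28.

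The highest ratios of MRPL genes were close to each other. MRPL32, which is cut by the m-AAA protease before it joins the ribosome, had 77.8 TPM in DMSO and 108 TPM in FIN56, a ratio of 1.39, with a count interval of 1.22 to 1.33. MRPL15, with a bacterial counterpart, had 135 TPM in DMSO and 182 TPM in FIN56, a ratio of 1.35. MRPL58, a peptidyl-tRNA hydrolase that frees stalled ribosomes, had 42.3 TPM in DMSO and 56.6 TPM in FIN56, a ratio of 1.34. MRPL46, a protein of the central protuberance, had 20.6 TPM in DMSO and 27.5 TPM in FIN56, a ratio of 1.34. MRPL46 shares an exon with another gene on the same strand. The count intervals of all 4 genes overlap each other, so their order is not resolved. MRPL52, the second most abundant MRPL gene, had 311 TPM in DMSO and 389 TPM in FIN56, a ratio of 1.25. MRPL51, the most abundant, differed little, with 449 TPM in DMSO and 475 TPM in FIN56, a ratio of 1.06.

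The MRPS18 family has 3 genes in human, whose proteins occupy different places. MRPS18B, a small subunit protein, had 126 TPM in DMSO and 150 TPM in FIN56, a ratio of 1.19. MRPS18C, which takes the place of the bacterial protein, had 115 TPM in DMSO and 122 TPM in FIN56, with a count ratio of 0.959 (0.906 to 1.02) on the other side of 1. MRPS18A, of the large subunit, had 17.6 TPM in DMSO and 18.9 TPM in FIN56, with an interval of 0.956 to 1.16. Of these 3, MRPS18B was the one whose interval left out 1. MRPS30, the other protein of the large subunit with an S name, had 58.7 TPM in DMSO and 71.6 TPM in FIN56, a ratio of 1.22. MRPS36 had 89.5 TPM in DMSO and 102.5 TPM in FIN56, with a count interval of 0.997 to 1.11 that holds 1.

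Within the subunits, the genes were grouped by the place or the origin of the protein. All 8 genes in a list of small subunit head proteins (MRPS7, MRPS9, MRPS10, MRPS14, MRPS24, MRPS31, MRPS33 and MRPS35) were higher in FIN56. Their median log2 TPM ratio was 0.24 and their intervals all lay above 1. Of the background, 57.3% had a higher level and 38.4% an interval above 1. The TPM ratios of the 8 genes ran from 1.05 for MRPS24 to 1.51 for MRPS35. Their summed count ratio was 1.18 (1.16 to 1.19), and they held 731 TPM in DMSO and 836 TPM in FIN56. Small subunit proteins with other symbols are in none of these lists and were not sorted into head or body, so the head list need not be complete. That every gene was higher therefore holds for this list alone and not for the head as a whole. Among the proteins with other symbols, DAP3 had a TPM ratio of 1.197 and AURKAIP1 one of 1.02, with 0.914 for PTCD3 and 0.677 for CHCHD1. The lists were drawn up with earlier results of these data known. Of 9 genes in a list of body and platform proteins with bacterial counterparts (MRPS5, MRPS6, MRPS11, MRPS12, MRPS15, MRPS16, MRPS17, MRPS18C and MRPS21), 5 were higher and 4 lower, with a median of 0.03 and TPM ratios from 0.751 for MRPS21 to 1.197 for MRPS17. Their summed count ratio was 0.920 (0.908 to 0.933), and they held 934 TPM in DMSO and 882 TPM in FIN56. The head list holds both mitochondria-specific genes and genes with bacterial counterparts, whereas the body list holds the latter alone. The 9 small subunit genes in neither list had a median of 0.21 (6 higher, 3 lower) and a summed count ratio of 1.095 (1.08 to 1.11). All 18 small subunit genes outside the head list had a median of 0.07 (11 higher, 7 lower) and a summed count ratio of 1.00 (0.994 to 1.01). Differences between these lists were not tested. By origin, the 10 mitochondria-specific small subunit genes had a median of 0.26 (8 higher, 2 lower), and the 16 with bacterial counterparts 0.08 (11 higher, 5 lower).

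In the large subunit these medians lay close together. The median log2 TPM ratio was 0.12 for the 19 mitochondria-specific genes (13 higher, 6 lower) and 0.11 for the 30 with bacterial counterparts (24 higher, 6 lower). Of the 4 stalk genes, MRPL10, MRPL12 and MRPL53 were higher and MRPL11 lower, with a summed count ratio of 1.00 (0.982 to 1.02). MRPL12, which carries the factor-binding domain of the stalk, had 151 TPM in DMSO and 186 TPM in FIN56; it was named after its value was seen. Of the 8 genes of the central protuberance, the crest above the peptidyl transferase center, 6 were higher and 2 lower, with a median of 0.06. Of the 7 genes around the tunnel exit, 5 were higher and 2 lower, with a median of 0.03, below the background median of 0.06.

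The 5 ribosomal subunits with other symbols had ratios on both sides of 1. GADD45GIP1, known as CRIF1, had 46.0 TPM in DMSO and 60.7 TPM in FIN56, a ratio of 1.32. DAP3, a GTP-binding protein of the small subunit, had 148 TPM in DMSO and 177 TPM in FIN56, a ratio of 1.197. AURKAIP1, of the small subunit, had 218 TPM in DMSO and 222 TPM in FIN56. PTCD3, a pentatricopeptide repeat protein of the small subunit, had 76.9 TPM in DMSO and 70.3 TPM in FIN56, a ratio of 0.914. CHCHD1, also of the small subunit, had 139 TPM in DMSO and 94.2 TPM in FIN56, a ratio of 0.677, near that of MRPL33. Their median log2 ratio was 0.03.

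The products that the mitochondrial ribosome works with were set beside its proteins. All 13 mRNAs encoded by mitochondrial DNA were higher in FIN56, with a median log2 TPM ratio of 0.33, from a ratio of 1.06 for MT-CO3 to 1.37 for MT-CYB. The 2 rRNAs were higher too, MT-RNR1 with 1657 TPM in DMSO and 1895 TPM in FIN56, and MT-RNR2 with 8600 and 10649 TPM. Selection for poly(A) captures only part of these rRNAs. Mitochondrially encoded genes took 4.77% of all counts in DMSO and 5.75% in FIN56. The mRNAs summed to 9.51 times the TPM of the 78 genes in DMSO and 10.9 times in FIN56.

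Other nuclear genes of mitochondrial translation had medians on both sides of that of the 78 genes. For 23 ribosome assembly genes the median log2 TPM ratio was 0.11 (15 higher, 8 lower), with the lowest ratio, 0.424, for YBEY, an RNase needed for the small subunit, and the highest, 1.43, for MTERF3. For 14 translation factors it was 0.17 (9 higher, 5 lower), from 0.691 for MTRF1 to 1.35 for MTRF1L, which are both release factors. For 17 mitochondrial tRNA synthetases it was 0.01 (10 higher, 7 lower), from 0.549 for SARS2 to 1.31 for HARS2. Of 13 tested genes for transcription of mitochondrial DNA and its regulators, 11 were higher and 2 lower, with a median of 0.16. TFAM, which packages mitochondrial DNA and starts its transcription, had 77.2 TPM in DMSO and 112 TPM in FIN56, a ratio of 1.45, and TEFM, an elongation factor, had 19.9 and 14.4 TPM. PPARGC1A was at 0 in both libraries. The 76 nuclear genes of the respiratory chain and ATP synthase had a median of 0.01 (41 higher, 35 lower), from 0.636 for UQCRC2 to 1.24 for NDUFAB1.

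Cytosolic ribosomal protein genes went the other way. Of 79 such genes, 76 were lower in FIN56 and 3 higher, with a median log2 TPM ratio of -0.26. The lowest ratios were those of RPLP0 in the large subunit (0.607) and RPS3 in the small subunit (0.593), and the highest those of RPL18 (1.04) and FAU (1.08). These genes held 184858 TPM in DMSO and 151991 TPM in FIN56. Their sum was 24.0 times that of the mitochondrial ribosomal protein genes in DMSO and 18.6 times in FIN56, a difference of -22.7%. TPM always add to the same total, so a lower share of such abundant genes leaves more for all others, and its part in the higher levels of the 78 genes was not tested. The median of all genes tested lay between 0.01 and 0.06 under the scalings tried.

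**Figure D3:**
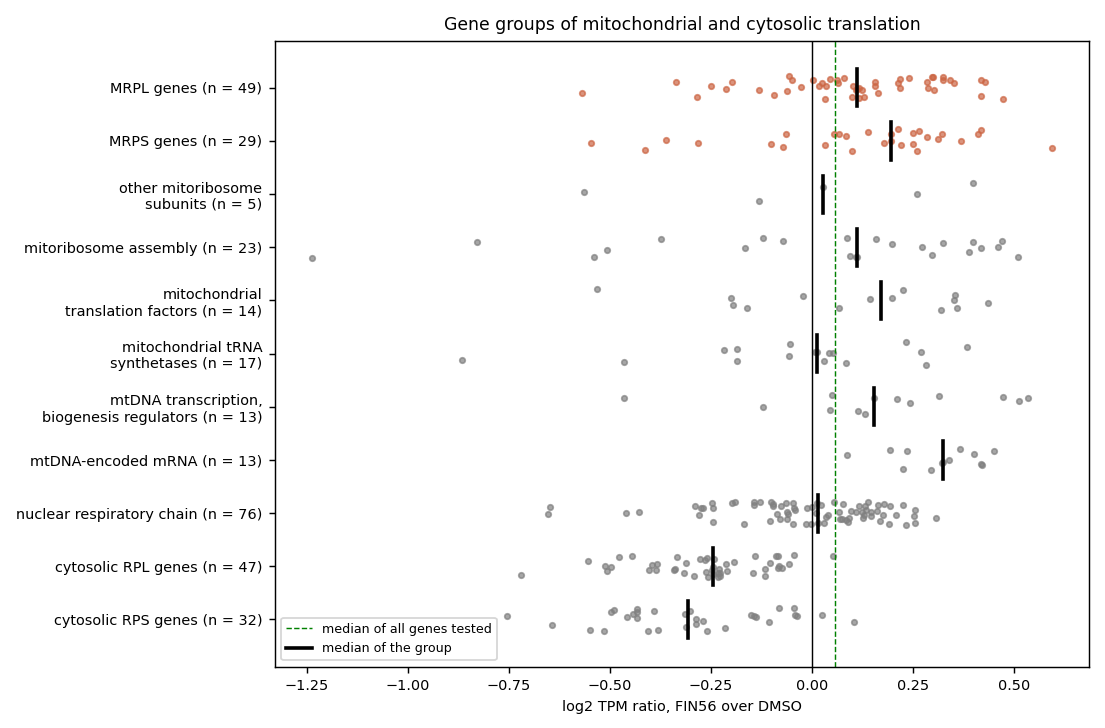
The log2 TPM ratio of FIN56 over DMSO for each gene (points) of the MRPL and MRPS genes and of other groups of mitochondrial and cytosolic translation, 1 library per condition, with thick bars at the group medians and a dashed line at the median of all genes tested, 0.06. The medians run from -0.31 for cytosolic RPS genes to 0.33 for the mRNAs of mitochondrial DNA, with 0.11 for MRPL and 0.20 for MRPS genes.

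By position, 19 of the 78 genes (24.4%) begin within 1000 bases of a neighbour that is read the other way, with at most 200 bases of overlap, against 13.2% of the 11378 tested coding genes. Such neighbours may use the same stretch of DNA as promoter. In 16 pairs with both genes tested, 8 pairs had both genes higher in FIN56, 8 had them in opposite directions and 0 had both lower. Of 17 tested neighbours, 13 were higher, as were most of the 78 genes, so by these shares alone few pairs would have both lower. The same counts for such pairs among all tested genes were not made. MRPS11 and MRPL46, which start 63 bases apart on chromosome 15 (MRPL46 at chr15:88459477-88467390, minus strand, and MRPS11 at chr15:88467453-88480776, plus strand), were on opposite sides, with log2 TPM ratios of -0.28 and 0.42. MRPS12, with 48.9 TPM in DMSO and 58.2 TPM in FIN56, faces SARS2, the mitochondrial seryl-tRNA synthetase, with 11.2 and 6.17 TPM. MRPL21, at -0.34, faces IGHMBP2, at 0.32. MRPL43, at -0.13, faces TWNK, the helicase of mitochondrial DNA, at 0.48. Respiratory chain genes were also among the neighbours, with NDUFS6 (0.26) beside MRPL36 (0.11) and NDUFB5 (-0.06) beside MRPL47 (0.03), and MRPL49 (0.30) faces FAU (0.11), a cytosolic ribosomal gene. These pairs were named after their values were seen.

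**Figure D4:**
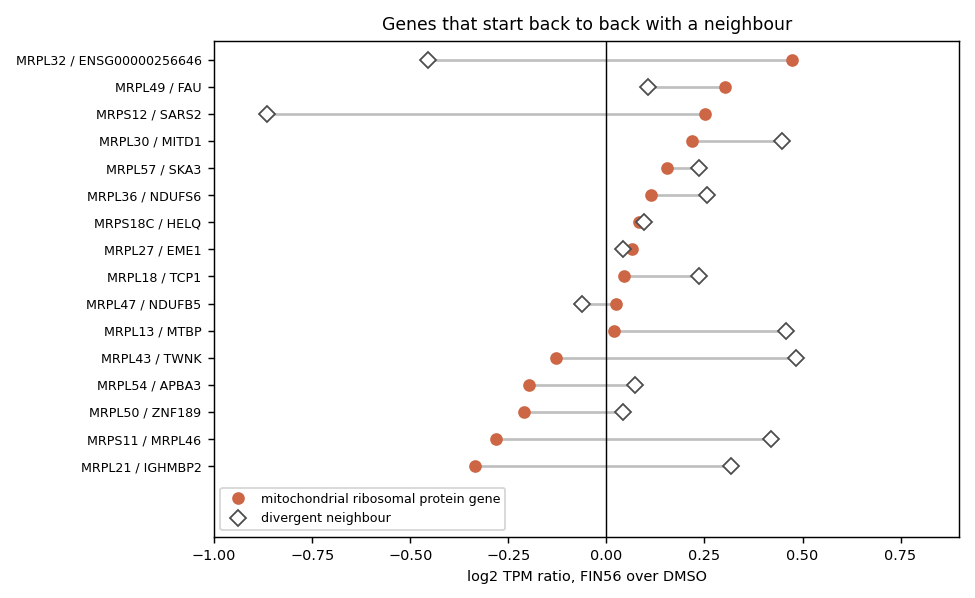
The log2 TPM ratio of FIN56 over DMSO for 16 mitochondrial ribosomal protein genes (filled circles) and the neighbour that starts back to back with each (open diamonds), 1 library per condition. In 8 pairs both lie to the right of 0, and in 8 they lie on opposite sides, as for MRPS12 (0.25) and SARS2 (-0.87).

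The transcripts of these genes are short, with a median length of 1242 bases and 5 exons, against 3386.5 bases and 9 exons for tested coding genes, while their GC content was close to that of the others (48.2% and 47.9%). Across the 78 genes, the log2 TPM ratio had Spearman correlations of 0.08 with transcript length, -0.02 with GC content and -0.17 with mean TPM. All come from the same pair of libraries and are descriptions. Exons of 41 genes overlap those of another gene, on the same strand for 18 and on the opposite strand for 30, and 33 of the 37 genes without overlap had whole counts, against 8 of the 41. The median log2 TPM ratio was 0.10 with overlap and 0.21 without it. Copies of these genes elsewhere in the genome took few reads. Of 79 listed pseudogenes, 17 had any, and together they held 0.254% of the counts of the 78 genes in DMSO and 0.255% in FIN56.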

How the data were processed

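RNA-seq libraries of HSC-3 cells, 1 with DMSO and 1 with FIN56, were used. The methods in the sources describe tumor samples and were taken to hold here. By these and the submitters' notes, the authors checked reads with FastQC 0.11.7 and AfterQC 0.9.7, mapped them by STAR 2.6.1a on GRCh38 (Ensembl release 94) and quantified genes with RSEM 1.3.1. The strand setting of the counting is not given in the sources used here. The deposited expected counts carry no normalization. The authors scaled the TPM and FPKM for library and effective length. Their deposited rlog values, on a log2 scale, come from DESeq2 1.26.0.

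The measure was the TPM ratio, FIN56 over DMSO. All 78 genes had at least 100 expected counts in both libraries, the minimum for background genes. Expected counts were rounded for the Clopper-Pearson intervals (95%), which were scaled by totals of 70184517 and 73062209 with upper bounds a median of 9.82% above the lower bounds. They cover counting error only, and PCR copies cannot be told from separate molecules here, since there were no molecular identifiers. With 1 library per condition no test was made. The genes named are the 4 highest and 4 lowest ratios and the 3 most abundant of each subunit, genes whose place departs from their symbol, subunits with other symbols, and the ends of each list. Other genes named were chosen after their values were seen. The genes, lists, motifs and thresholds were chosen with earlier results of these data known, and the lists were written from general knowledge. Positions and overlaps came from GENCODE release 44 on GRCh38, which held 99.7% of the identifiers, and promoter windows from RefSeq on GRCh38.p14. Alternatives were FPKM, rlog, counts scaled by totals, edgeR 4.0.16 TMM or DESeq2 1.42.0 size factors, a pseudocount of 1, centring in 10 bins of GC content and 10 of length, whole counts, subunits by structure and a threshold of 1.2. Genes without shared exons were added after the data were seen. The counting intervals and the recovery of large changes were tested on simulated counts that held counting error only. The other steps were not tested in this way. Python 3.11.15 (numpy 2.4.6, scipy 1.17.1, pandas 2.3.3, matplotlib 3.10.9) and R 4.3.3 were used.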

Additional observations from a re-analysis of the deposited data

How the results depend on the processing

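No paired analysis was possible because there was 1 library per condition, and for the same reason none could be left out. Of 90 values recomputed under 12 settings, 75 stayed within their counting range or within 1.5 times the count, 15 moved and 0 reversed. The 75 include values that could not differ, since the setting of at least 100 expected counts kept all 78 genes. By the rlog values, which are shrunken, the median log2 ratio was 0.045 over all 78 genes (0.12 by TPM), 0.041 for MRPL and 0.072 for MRPS genes, and 0 genes passed 1.5. At a threshold of 1.2, 28 genes passed it in either direction. The other shifts came from settings that keep fewer genes. Among the 41 genes with whole counts, 10 were lower, the interval lay below 1 for 10 and above 1 for 23, and 27 lay above the median of all genes. Among the 37 genes without a shared exon, added after the data were seen, the median was 0.21 (0.26 for MRPS genes), 9 were lower, the interval lay below 1 for 9 and above 1 for 22, and 26 lay above the median of all genes. The difference between the large and the small subunit was negative under every setting run, from -0.03 by rlog to -0.15 without shared exons. Several settings could hardly change it. Scaling counts by totals, TMM or size factors shifts all genes alike, and each gave -0.066. FPKM and TPM differ by a constant factor per library, and both gave -0.083. The minimum of expected counts kept all genes. All settings use the same 2 libraries, so the shared sign does not show that the subunits differ. The counting range of this difference by TPM, -0.21 to 0.06, cannot decide it either, since it leaves out the spread between genes. Depth limits little here, since each gene had at least 723.7 expected counts, but the spread between cultures is unknown.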
